A study of Mus musculus with 37 samples.

Results

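The genes of the voltage-gated sodium and calcium channels were measured in hippocampal RNA of 37 mice with 42 probes of the Illumina MouseRef-8 V1.1 array. A probe was taken when the gene symbol of the platform started with *Scn* and a digit or with *Cacn*, which gave 9 probes of 7 sodium channel genes and 33 probes of 21 calcium channel genes among the 24620 probes of the array. The mice were females of 3 to 4 months from CSS15F2, the F2 generation of a chromosome substitution strain with C57BL/6J as host and A/J as donor of chromosome 15, so that chromosome 15 was the chromosome that varied between animals. RNA came from punches of the left hippocampus, pooled within each mouse and not across mice, with 1 array per mouse. All mice formed 1 group, with neither genotypes nor behavior of individual animals in use, and the spread between mice is the replicate error of every value given.

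Voltage-gated sodium channels carry the rising phase of the action potential, and voltage-gated calcium channels turn depolarization into calcium entry, which drives transmitter release, dendritic signalling and gene expression. Each channel is built around a large pore-forming alpha subunit. In sodium channels it is joined by beta subunits, and in calcium channels by an intracellular beta subunit and an extracellular α2δ subunit, while most of the brain proteins named gamma subunits are known mainly as partners of AMPA-type glutamate receptors. In the hippocampus these genes set the firing of pyramidal cells, granule cells and interneurons.

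A probe was counted as detected where its deposited detection score was over 0.99. Of the 42 channel probes, 6 were detected on all 37 arrays, 12 on at least 19 arrays, 13 on 1 to 18 arrays and 17 on none. The 12 probes on at least 19 arrays belonged to 12 different genes and made up 28.6% of the channel probes, against 34.7% of all probes of the array. On no array 40.5% of the channel probes were detected, against 45.4% of all probes. Each array detected between 6 and 19 channel probes (median 13).

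**Figure D1:**
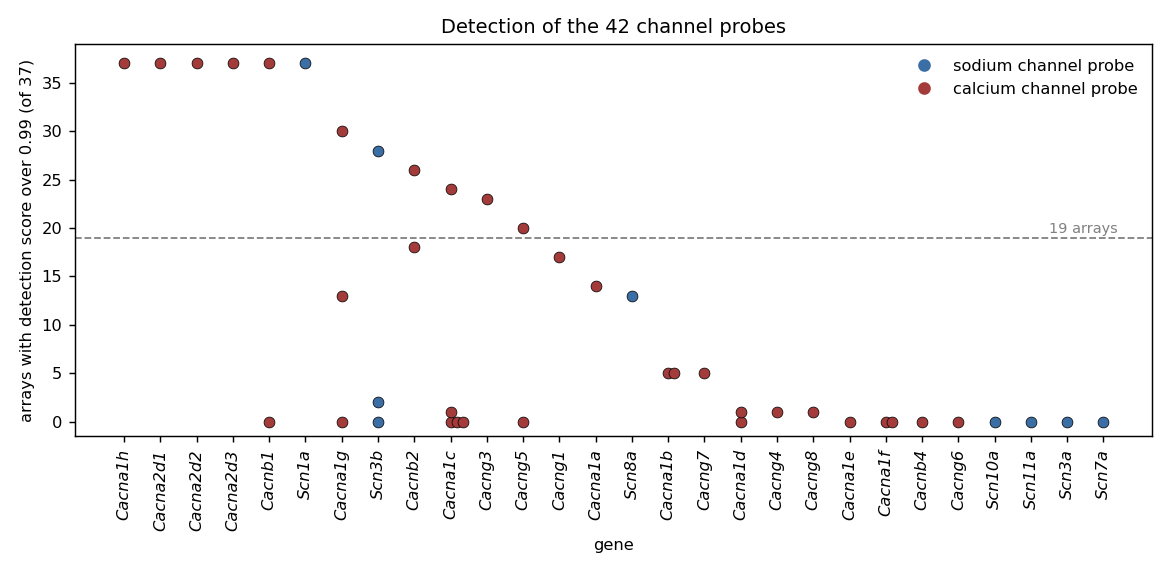
Number of arrays, of 37, on which each of the 42 channel probes had a detection score over 0.99 (vertical axis), with the 28 genes on the horizontal axis and 1 point per probe (blue for sodium channel genes, red for calcium channel genes). The dashed line lies at 19 arrays, and 12 probes lie above it, each of another gene.

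Among the pore-forming sodium channel subunits, *Scn1a*, the gene whose loss of function causes Dravet syndrome in humans, was detected on all 37 arrays. *Scn8a*, which encodes the main sodium channel of mature nodes of Ranvier and axon initial segments, was detected on 13 arrays. *Scn8a* was the only channel gene of the list on chromosome 15. Its log2 level ran from 4.64 to 5.97 (median 5.02), close to background on most arrays, and it did not enter the main fits below. In the alternative with all probes detected on at least 1 array, *Scn8a* rose with the number of detected probes (limma, adjusted p = 0.0030), *Scn1a* (adjusted p = 0.015) and *Cacna1c* (adjusted p = 0.00076) and fell with *Card10* (adjusted p = 0.023). Its values fell in 2 groups by a normal mixture, so these slopes over all mice cannot be told apart from a difference between the groups. No correlation over all mice is given. *Scn8a* was not fitted with the number of detected probes as a covariate or without quantile normalization. No array detected *Scn3a*, a gene of the embryonic and neonatal brain, *Scn7a*, which encodes a channel that senses the sodium concentration, or *Scn10a* and *Scn11a*, genes of peripheral sensory neurons. Of the 3 probes of the beta subunit gene *Scn3b*, 1 was detected on 28 arrays, 1 on 2 arrays and 1 on none.

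Among the pore-forming calcium channel subunits, the low-threshold (T-type) genes *Cacna1h* and *Cacna1g* were detected on 37 and 30 arrays with their best probes. *Cacna1c*, the main L-type gene of the brain, was detected on 24 arrays with 1 of its 5 probes, on 1 array with another and on none with the other 3. *Cacna1a* and *Cacna1b*, the genes of the P/Q-type and N-type channels of presynaptic terminals, were detected on 14 arrays and, with each of the 2 *Cacna1b* probes, on 5 arrays. The second L-type gene *Cacna1d* was detected on 1 array with 1 of its probes. *Cacna1e*, the R-type gene, and *Cacna1f*, the L-type gene of photoreceptors, were detected on none. Probes of 1 gene thus differed, and the 3 probes of *Cacna1g* were detected on 30, 13 and 0 arrays.

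Of the auxiliary calcium channel subunits, the α2δ genes *Cacna2d1*, *Cacna2d2* and *Cacna2d3* were detected on all 37 arrays, and the first pair of them encodes the binding sites of gabapentin. The intracellular beta subunit gene *Cacnb1* was detected on all 37 arrays with 1 probe and on none with the other, and *Cacnb2* on 26 and 18 arrays. *Cacnb4*, the gene mutated in the epileptic lethargic mouse, was detected on no array. Of the gamma genes, *Cacng3* and *Cacng5* were detected on 23 and 20 arrays, *Cacng1*, a gene of skeletal muscle, on 17, *Cacng7* on 5, *Cacng4* and *Cacng8* on 1 each and *Cacng6* on none. A second *Cacng5* probe was also at 0 arrays. A probe below detection here shows that its signal was not above the negative control beads, not that the gene was silent.

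The arrays differed in how much they detected. The number of detected probes ranged from 5281 to 10724 with a median of 8704, and Spearman's correlation between arrays ranged from 0.704 to 0.959. On 6 arrays, 5 of them in the larger of the 2 sets of BeadChips, fewer than 7000 probes were detected (5281 to 6877), and the other 31 arrays started at 7147. The arrays lay on 13 BeadChips of 1 to 6 arrays, in a set of 26 and a set of 11 arrays by chip numbering. Over the 12 chips with at least 2 arrays, 0 of the 12 detected channel probes differed between chips (limma, moderated F-test, adjusted over 8541 probes, of which 26 or 0.304% passed), and 1, *Cacnb2*, had an unadjusted p under 0.05. Of the genes of hippocampal neurons, *Prox1* of dentate granule cells, *Wfs1* and *Fibcd1* of CA1, *Bok* of CA3, *Camk2a* and *Slc17a7* were detected on all 37 arrays with their best probes. Another *Bok* probe was detected on 14 arrays and another *Camk2a* probe on 0. *Grik4* and *Nptx1* of CA3 were detected on 30 and 31, and *Tdo2* of granule cells and *Neurod6* of pyramidal cells on 0. Markers of glia and of neighbouring tissue, such as *Mbp* of oligodendrocytes and *Slc17a6* and *Tcf7l2* of the thalamus, were also detected on all 37 arrays with their best probes. *Lef1* of the thalamus and another *Tcf7l2* probe were detected on 0. *Gfap* of astrocytes was detected on 25, and *Cx3cr1* and *Aif1* of microglia on 32 and 33, with another *Aif1* probe on 0. The choroid plexus marker *Ttr* was detected on 36 arrays with log2 levels from 4.86 to 14.31. In bulk tissue, fewer cells of a type and less RNA per cell cannot be told apart.

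The levels of the 12 detected channel probes were compared between mice on the log2 scale, after the background of each array had been estimated from its detection scores and the arrays had been quantile normalized. Levels of different probes are not comparable with each other. *Scn1a* ran from 7.05 in mouse 77 over a median of 8.12 to 9.50 in mouse 108 (SD 0.57, n = 37 mice). *Cacna2d1* ran from 7.98 in mouse 76 over 9.43 to 10.44 in mouse 113 (SD 0.63). *Cacna1c* ran from 4.57 in mouse 20 over 5.80 to 6.88 in mouse 108 (SD 0.66). With these probes the mice with the highest *Scn1a* and the highest *Cacna1c* are thus the same animal. Another *Cacna1c* probe, detected on 1 array, had its lowest level, 4.70, in mouse 108.

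The smallest SDs belonged to *Cacna1h* (0.37, from 8.46 over 9.27 to 10.01), *Cacnb1* (0.42, from 6.08 over 6.85 to 7.72) and *Cacna2d3* (0.46, from 8.01 over 8.75 to 9.39). *Cacna2d2* lay between 7.01 and 9.06 with a median of 8.02. *Cacnb2* lay between 5.28 and 7.28 with a median of 6.20. The T-type gene *Cacna1g* lay between 4.88 and 7.21 with a median of 6.25, *Cacng3* between 4.72 and 7.37 with a median of 5.77, and *Cacng5* between 4.49 and 6.39 with a median of 5.52. The median SD of the 12 probes was 0.525, against 0.440 for all 8541 probes detected on at least 19 arrays, and 10 of the 12 lay above that array median. In the log2 values that the authors deposited the medians were 0.255 and 0.239, and 6 of the 12 lay above.

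**Figure D2:**
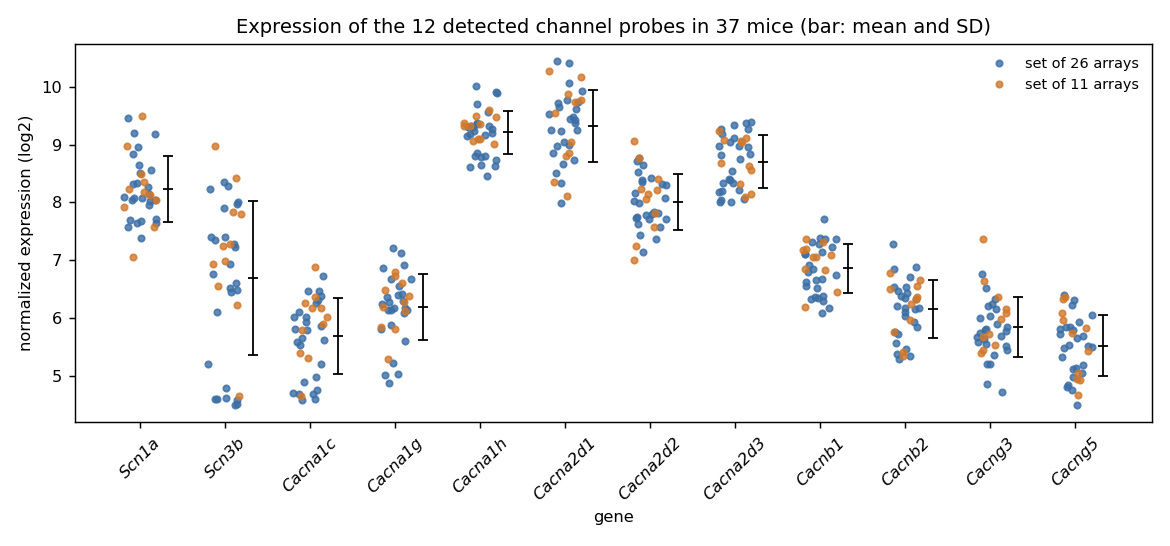
Normalized log2 expression (vertical axis) of the 12 channel probes detected on at least 19 arrays, with 1 point per mouse, coloured by the set of BeadChips, and a bar for the mean and SD over 37 mice. *Scn3b* is spread from 4.49 to 8.98 with a gap above its lowest 8 mice, while *Cacna1h* stays within 8.46 to 10.01. Heights of different genes are not comparable.

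*Scn3b*, the sodium channel beta subunit gene, was the most variable of the 12, with an SD of 1.33 that exceeded that of 99.3% of the detected probes. A normal mixture split its values in 2. In 8 mice (20, 31, 43, 61, 78, 86, 101 and 151) it lay between 4.49 and 4.78 and was detected on 0 arrays. In the other 29 mice it lay between 5.20 and 8.98 (median 7.27) and was detected on 28 arrays. The split was made on these *Scn3b* values, so the distance between the groups and their detection of *Scn3b* are no separate result. The number of detected probes on their arrays was 5281 to 7430 for the low mice and 7665 to 10724 for the others. Within the 29 mice the level of *Scn3b* still followed the number of detected probes (r = 0.677, rho = 0.741). The 8 low mice were spread over 5 BeadChips, and 7 of them belonged to the set of 26 arrays. In the fits below, the slopes of *Scn3b* over all mice cannot be told apart from a difference between these groups.

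The number of detected probes was then set against all detected channel genes, to see which of them moved with how much an array detected. With every 1000 more detected probes, 9 of the 12 rose and 1 fell (limma slope, adjusted over 8541 probes). Of all probes 37.6% rose and 29.4% fell. *Cacna1c* rose by 0.41 ± 0.04 (SE) on the log2 scale per 1000 probes (adjusted p = 2.8e-11), *Cacng5* by 0.26 ± 0.05 (adjusted p = 5.1e-06), *Cacna1g* by 0.23 ± 0.06 (adjusted p = 0.00031) and *Scn1a* by 0.21 ± 0.06 (adjusted p = 0.0017). *Scn3b*, *Cacng3*, *Cacnb2*, *Cacna1h* and *Cacna2d3* also rose. All fitted channel probes that were detected on fewer than 37 arrays were among those that rose. Of the 6 detected on all 37 arrays, *Scn1a*, *Cacna1h* and *Cacna2d3* rose, *Cacnb1* fell and *Cacna2d1* and *Cacna2d2* did not pass. For a probe detected on part of the arrays, a rise is partly built into the number of detected probes and is no separate result. The calls were the same 10 genes whichever mouse was left out, but *Cacna1g* did not pass with BeadChip as a block (adjusted p = 0.072) or without the 6 arrays of fewer than 7000 detected probes (adjusted p = 0.99). In the authors' values *Cacnb2* (adjusted p = 0.11) and *Cacng3* (adjusted p = 0.076) did not pass, nor did *Cacna2d3* within the set of 26 arrays (adjusted p = 0.083).

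*Cacnb1*, which encodes a beta subunit best known from skeletal muscle but also made in the brain, fell by 0.18 ± 0.04 per 1000 detected probes (r = -0.586, adjusted p = 0.00026), whereas without quantile normalization it rose (r = 0.698), as did 7726 of the 8541 probes, with a median r of 0.818 over all probes. *Cacna2d1* (slope 0.05 ± 0.07, adjusted p = 0.59) and *Cacna2d2* (slope -0.02 ± 0.06, adjusted p = 0.72) did not pass. On the 6 arrays with fewer than 7000 detected probes *Cacna1c* lay between 4.57 and 4.75 and on the other 31 between 4.67 and 6.88. *Cacna2d1* on the same arrays lay between 8.35 and 9.73, inside its range of 7.98 to 10.44 on the others. The low values of *Cacna1c*, *Scn3b* and *Cacng5* lay near the bottom of the log2 scale, where a probe is not told from background.

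**Figure D3:**
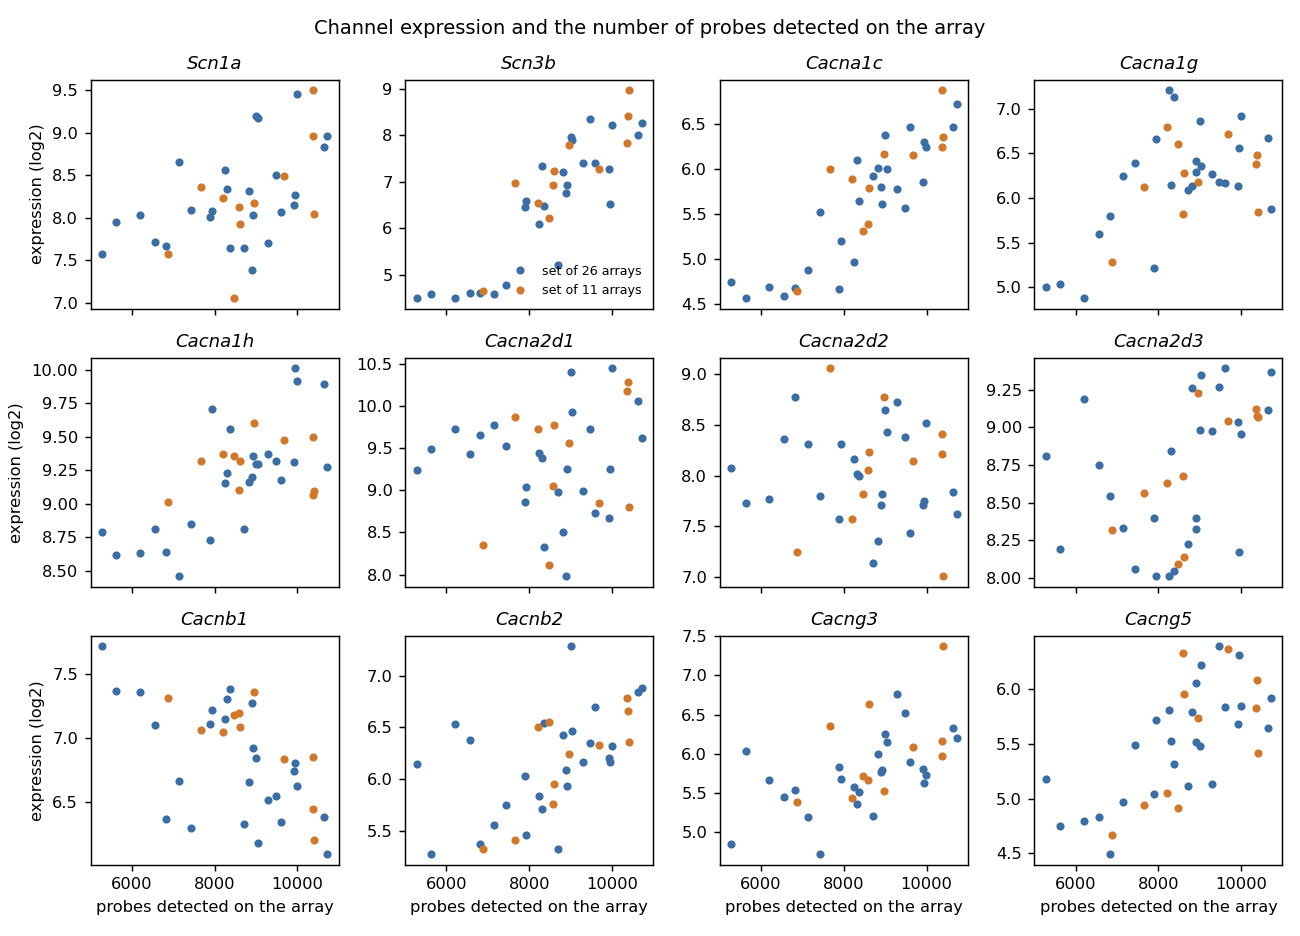
Log2 expression of each of the 12 channel probes (vertical axes, each with its own range) against the number of probes detected on the array (horizontal axis), with 1 point per mouse, coloured by the set of BeadChips. *Scn3b* and *Cacna1c* lie near the bottom of the scale on the arrays with the fewest detected probes, *Cacnb1* slopes down, and *Cacna2d1* and *Cacna2d2* show no passing slope.

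Co-variation with *Scn1a* was fitted as the sodium channel comparison, across all 8540 other probes. Of the 11 other channel genes, 6 rose with *Scn1a* (*Cacna2d1*, *Cacna1c*, *Scn3b*, *Cacng5*, *Cacna2d3* and *Cacnb2*) and *Cacnb1* fell, a direction that turned without quantile normalization (r = 0.626 against -0.436). Of all probes 19.4% rose and 21.6% fell. *Cacna2d1* had the steepest slope of the genes without separate groups of mice, 0.83 ± 0.12 (SE) log2 units per log2 unit of *Scn1a* (r = 0.752, rho = 0.679, adjusted p = 7.4e-06). With the number of detected probes as a covariate only *Cacna2d1* passed (r = 0.818, adjusted p = 2.1e-06), as did 3.76% of all probes. Leaving out single mice left between 6 and 9 calls. The call of *Cacnb1* was lost without mouse 129 and that of *Cacnb2* without mouse 108 or 155. With BeadChip as a block neither *Cacnb1* (adjusted p = 0.080) nor *Cacnb2* (adjusted p = 0.12) passed, and neither did within the set of 26 arrays or without the 6 arrays of fewer than 7000 detected probes, where *Cacna2d3* (adjusted p = 0.083) and *Cacng5* (adjusted p = 0.075) respectively were lost too.

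The values of single mice show the relation of *Scn1a* and the α2δ subunit gene *Cacna2d1*. Mouse 77, with the lowest *Scn1a* at 7.05, had *Cacna2d1* at 8.11, and mouse 76, with the lowest *Cacna2d1* at 7.98, had *Scn1a* at 7.39. Mouse 108, with the highest *Scn1a* at 9.50, had *Cacna2d1* at 10.17, and mouse 113, with the highest *Cacna2d1* at 10.44, had *Scn1a* at 9.46. In the 5 mice with the highest *Scn1a*, *Cacna2d1* lay between 9.93 and 10.44, and in the 5 with the lowest between 7.98 and 9.24. This pair had the largest r of the channel genes without separate groups of mice. These ranges therefore illustrate its r and are no further test. Of the 18 mice above the median of *Scn1a*, 13 were above that of *Cacna2d1*, against 5 of the other 19. The relation was r = 0.728 within the set of 26 arrays, r = 0.796 within the set of 11 and r = 0.802 with the BeadChips as a block. Within the set of 11 arrays alone it did not pass (adjusted p = 0.060).

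*Cacna2d1* itself moved with few probes, 2.66% of all. Of the 11 other channel genes *Scn1a* and the second α2δ gene *Cacna2d2* passed, both rising. *Cacna2d2* rose by 0.42 ± 0.11 (SE) log2 units per log2 unit of *Cacna2d1* (r = 0.547, adjusted p = 0.026), and by 0.43 ± 0.11 with the number of detected probes as a covariate (adjusted p = 0.013). Its call was lost without mouse 78, 113 or 155, with the BeadChips as a block (adjusted p = 0.28) and within the set of 26 arrays (adjusted p = 0.16). *Cacna2d2* did not pass with *Scn1a* (r = 0.321, adjusted p = 0.096).

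**Figure D4:**
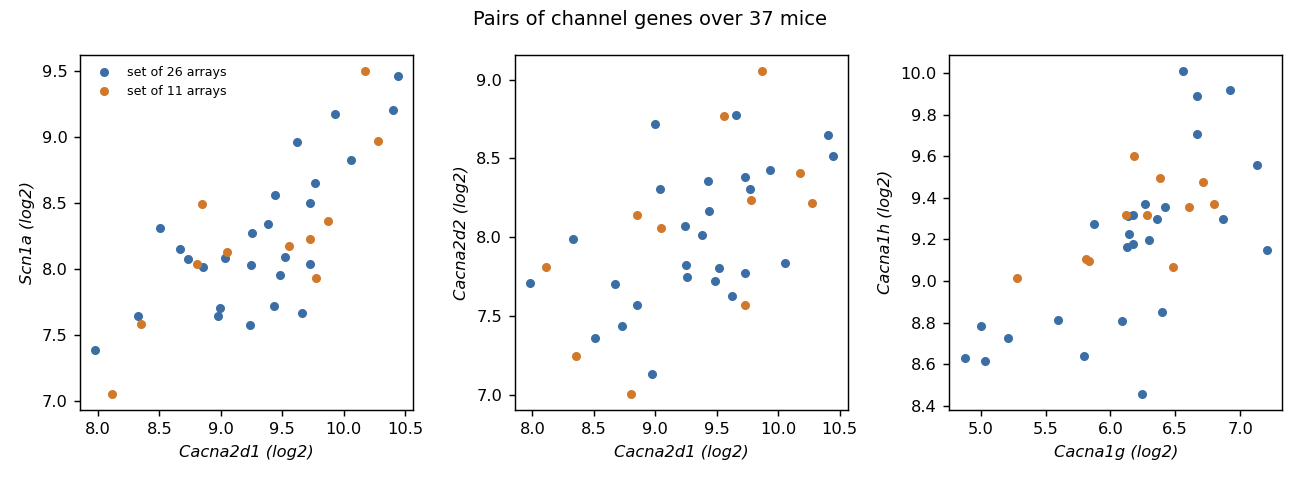
Log2 expression of *Scn1a* against *Cacna2d1*, *Cacna2d2* against *Cacna2d1*, and *Cacna1h* against *Cacna1g*, with 1 point per mouse, coloured by the set of BeadChips. The points rise together in all 3 panels (r = 0.752, 0.547 and 0.669). For *Scn1a*, *Cacna2d1* and *Cacna2d2* both sets of chips hold low and high values. *Cacna1h* lies between 9.01 and 9.60 in the smaller set of chips, and between 8.46 and 10.01 in the larger set.

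The start regions of these 3 genes are shown because *Scn1a* and *Cacna2d2* each rose with *Cacna2d1*. Each is the RefSeq window from 250 bases before to 50 after the start of transcription on GRCm38.p6, read 5′ to 3′ on the strand of the gene, with letters of the GC box GGGCGG, read on both strands, in capitals. *Scn1a* lies at chr2:66440788-66441087 on the minus strand, *Cacna2d1* at chr5:15934441-15934740 and *Cacna2d2* at chr9:107399630-107399929, both on the plus strand.
Scn1a: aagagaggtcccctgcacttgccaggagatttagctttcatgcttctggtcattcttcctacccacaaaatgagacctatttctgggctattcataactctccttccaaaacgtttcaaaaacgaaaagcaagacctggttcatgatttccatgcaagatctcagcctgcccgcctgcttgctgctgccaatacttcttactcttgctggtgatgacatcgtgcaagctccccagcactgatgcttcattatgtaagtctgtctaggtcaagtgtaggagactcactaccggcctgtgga
Cacna2d1: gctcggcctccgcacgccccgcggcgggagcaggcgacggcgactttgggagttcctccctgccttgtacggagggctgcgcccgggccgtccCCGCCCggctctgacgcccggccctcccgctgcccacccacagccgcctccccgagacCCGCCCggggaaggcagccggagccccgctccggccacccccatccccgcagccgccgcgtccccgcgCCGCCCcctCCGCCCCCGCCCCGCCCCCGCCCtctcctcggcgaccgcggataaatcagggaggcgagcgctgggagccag
Cacna2d2: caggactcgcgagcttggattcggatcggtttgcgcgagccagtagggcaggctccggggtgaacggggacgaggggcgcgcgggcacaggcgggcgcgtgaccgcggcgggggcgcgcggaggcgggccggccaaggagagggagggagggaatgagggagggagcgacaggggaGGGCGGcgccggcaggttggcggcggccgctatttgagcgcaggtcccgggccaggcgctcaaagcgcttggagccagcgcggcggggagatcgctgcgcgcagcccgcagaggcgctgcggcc

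The *Scn1a* window held 0 GC boxes and 5 CpG dinucleotides at 47.3% G and C. The *Cacna2d1* window held 7 GC boxes, some of them overlapping, and 42 CpG at 80.0% G and C, and that of *Cacna2d2* 1 GC box and 43 CpG at 75.7%. The median of 32851 windows of the same length was 7 CpG and 52.7% G and C, and 35.7% of them held a GC box. The letters TATAAA (in 13.6% of all windows), TGACGTCA (1.8%) and CACGTG (7.2%) were searched on both strands and were in none of the 3. Windows were given for 21 of the 28 channel genes, and 13 of these genes held a GC box in a window. Some genes had several windows. Counted by window, as for the 35.7% of all windows, 13 of the 30 channel windows held a GC box. The sequence shows what stands in these windows and nothing on their use in these animals.

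Co-variation with *Cacna1c* was fitted as the calcium channel comparison. Of the 11 other channel genes, 8 rose and *Cacnb1* fell, a direction that turned without quantile normalization (r = 0.584 against -0.525). Of all probes 34.9% rose and 29.3% fell, and *Cacna1c* itself followed the number of detected probes (r = 0.867). *Cacna1h* rose by 0.37 ± 0.07 (SE) per log2 unit of *Cacna1c* (adjusted p = 5e-05), *Cacng5* by 0.48 ± 0.11 (adjusted p = 0.00017) and *Scn1a* by 0.48 ± 0.12 (adjusted p = 0.00053). *Cacna2d1* (r = 0.230, adjusted p = 0.20) and *Cacna2d2* (r = 0.0054, adjusted p = 0.98) did not pass. With the number of detected probes as a covariate, 0 of 8540 probes passed (0%, limma), 695 had an unadjusted p under 0.05, and 0 of the 11 channel genes were among them. The call of *Cacna1g* was lost with BeadChip as a block (adjusted p = 0.13), that of *Cacng3* in the authors' values (adjusted p = 0.31) and that of *Cacng5* without the 6 arrays of fewer than 7000 detected probes (adjusted p = 0.14).

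Subunits that assemble into 1 channel, or that share a class, were compared as pairs where both genes were detected, which left 3 pairs. *Cacna1c* and the beta subunit gene *Cacnb2* rose together (r = 0.563, limma adjusted p = 0.00051), with rho = 0.581 (two-sided permutation p = 0.00016). The T-type genes *Cacna1g* and *Cacna1h* rose together with r = 0.669 and rho = 0.695 (limma adjusted p = 0.00033). Their permutation p was 1e-05 for both measures, the smallest that 100000 permutations can give. In the *Cacna1g* fit 44.2% of all probes passed. These *Cacna1g* values are those of the probe detected on 30 arrays. The *Cacna1g* probe detected on 13 arrays had its highest level, 6.37, in mouse 61, where the fitted probe had its lowest, 4.88. Its relation to *Cacna1h* was not fitted. The α2δ genes *Cacna2d1* and *Cacna2d3* did not pass (r = 0.308, permutation p = 0.063, limma adjusted p = 0.31).

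Without the 2 mice farthest from the median of the first gene, r was 0.571 for *Cacna1c* and *Cacnb2*, 0.618 for *Cacna1g* and *Cacna1h* and 0.216 for the α2δ pair. Within the set of 26 arrays the 3 values were 0.548, 0.686 and 0.270, and within the set of 11 arrays 0.636, 0.604 and 0.412. In the authors' values they were 0.367 (limma adjusted p = 0.048), 0.604 (adjusted p = 0.0052) and 0.338 (adjusted p = 0.19). With the number of detected probes as a covariate both calls were lost, at r = 0.210 (adjusted p = 0.72) for *Cacna1c* and *Cacnb2* and r = 0.472 (adjusted p = 0.086) for *Cacna1g* and *Cacna1h*. In the 5 mice with the lowest *Cacna1g*, *Cacna1h* lay between 8.62 and 9.01, and in the 5 with the highest between 9.15 and 9.92. Without the 6 arrays of fewer than 7000 detected probes the T-type pair did not pass (r = 0.501, limma adjusted p = 0.27, unadjusted p = 0.0046). In that *Cacna1g* fit 0 of all 8540 probes passed.

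Over all 55 pairs of the 11 channel genes without separate groups of mice, 45 correlations were positive, and the median absolute r was 0.321 against 0.316 for all pairs of detected probes. The 5 largest were *Scn1a* with *Cacna2d1* (0.752), *Cacna1g* with *Cacna1h* (0.669), *Cacna1c* with *Cacna1h* (0.653), *Cacnb2* with *Cacna2d3* (0.611) and *Cacna1c* with *Cacng5* (0.598). After the number of detected probes was taken out they were 0.818, 0.472, 0.197, 0.494 and 0.012. The median absolute r was then 0.158 for the channel pairs and 0.233 for all. Of *Scn3b*, correlations were taken within the 29 mice of its larger group, where the highest were with *Cacna2d3* (r = 0.781) and *Cacng3* (r = 0.667). All these values share the same 37 arrays and their depth of detection and are given as a description.

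**Figure D5:**
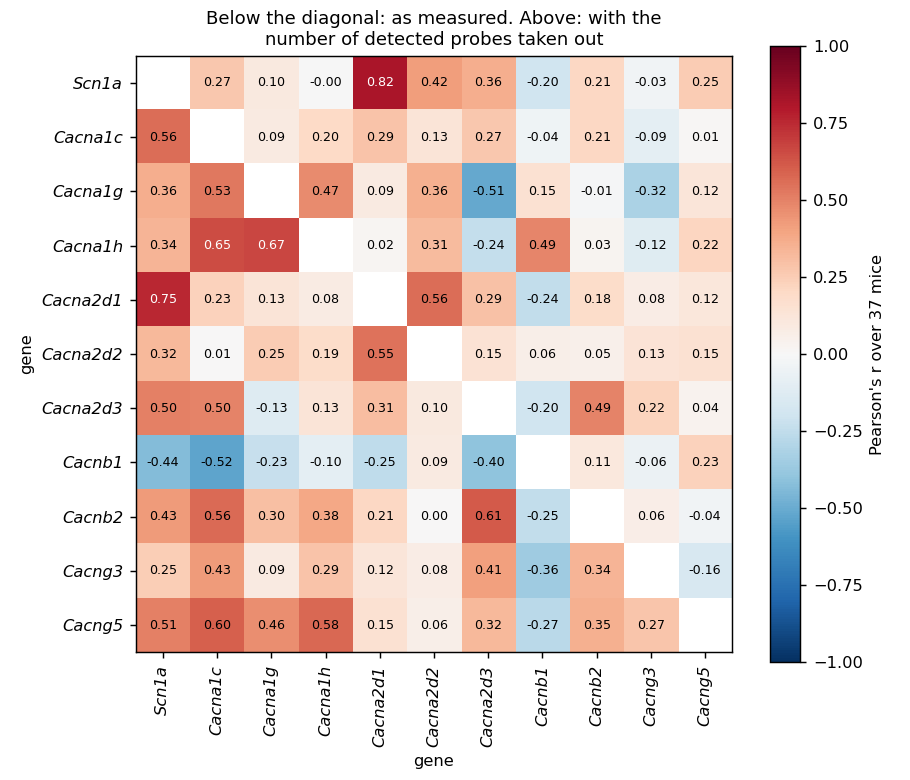
Pearson's r between the 11 channel genes without separate groups of mice over 37 mice (colour and number), as measured below the diagonal and with the number of detected probes taken out above it. *Scn1a* with *Cacna2d1* stays high (0.752 and 0.818), while the values of *Cacna1c* reach 0.653 below the diagonal and at most 0.286 above it.

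The probes of the array most like the 2 fitted genes were named by their r over the 37 mice. Closest to *Scn1a* were *Mdga2* (r = 0.860), a probe with no gene name here (0.857) and *Golim4* (0.844). Closest to *Cacna1c* were *Lgi1* (0.914), a secreted synaptic protein gene mutated in a human epilepsy, *Pip5k1b* (0.892) and *Trp53bp1* (0.886). None of the named genes among them was a channel gene, and the probe with no gene name cannot be assigned.

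Genes of proteins that bind or follow these channels were counted as a list of 33, of which 19 were detected, each with 1 probe. With *Scn1a* 9 of the 19 rose and 0 fell, and with *Cacna1c* 9 rose and 0 fell, beside the 19.4% and 34.9% of all probes that rose. *Ank3* and *Ank2*, the ankyrins that hold membrane proteins such as sodium channels in the axon, rose by 1.60 ± 0.32 (SE) (adjusted p = 0.00034) and 0.83 ± 0.12 (adjusted p = 3.6e-06) per log2 unit of *Scn1a*. *Syt1*, the calcium sensor of vesicle release, rose by 1.08 ± 0.15 (adjusted p = 2.3e-06). The active zone genes *Rims1* and *Rims2*, the plasma membrane calcium pump *Atp2b2*, the sodium channel partner *Fgf13* and the calcineurin subunit gene *Ppp3ca* passed in both fits. *Cntn1* passed with *Scn1a* and *Sptbn4* with *Cacna1c*.

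With the number of detected probes as a covariate, *Ank2* (adjusted p = 0.00082), *Syt1* (adjusted p = 0.00028), *Atp2b2* (adjusted p = 0.030) and *Cntn1* (adjusted p = 0.036) still rose with *Scn1a*, and 0 of the 19 moved with *Cacna1c*. *Ank3* did not pass there (adjusted p = 0.072). Over all probes 3.76% passed with *Scn1a* in that fit. Of the 19, 11 rose with the number of detected probes and *Fgf12* fell, beside 37.6% and 29.4% of all probes. The median r of the 19 with *Scn1a* was 0.338, against 0.015 over all probes.

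Markers of the cell types in or near the punch were counted in the same fits, in which 19.4% of all probes rose and 21.6% fell with *Scn1a* and 34.9% and 29.3% with *Cacna1c*. With *Scn1a*, of the markers detected, 1 dentate granule probe of 2, 1 interneuron probe of 5, 1 oligodendrocyte precursor probe of 2, 1 microglia probe of 3, 1 endothelial probe of 3 and the single muscle probe fell. In the same fit 1 CA3 probe of 3, 2 interneuron probes of 5, 1 oligodendrocyte probe of 5, 1 astrocyte probe of 3, 1 microglia probe of 3 and 1 endothelial probe of 3 rose. None of the 3 CA1, 4 pyramidal and granule neuron, 3 choroid plexus or 3 thalamus probes passed with *Scn1a*. With *Cacna1c* 2 of 3 CA1, 1 of 3 CA3, 2 of 4 pyramidal and granule neuron, 2 of 5 interneuron, 2 of 5 oligodendrocyte, 2 of 3 astrocyte, 1 of 3 microglia and 2 of 3 endothelial probes rose. In that fit 1 dentate granule, 2 interneuron, 1 oligodendrocyte precursor, 1 microglia, 1 endothelial, 1 choroid plexus and 1 muscle probe fell, and 0 of 3 thalamus probes passed. Without quantile normalization 1 interneuron probe fell in each fit and no other marker did, and the dentate granule, oligodendrocyte precursor and muscle probes all rose. The part of cell composition in the co-variation of the channel genes was not tested.

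*Card10* was fitted because it lies on chromosome 15, and its level is not a genotype. Of the 12 channel genes 0 rose and 3 fell, namely *Cacna2d3* (slope -0.46 ± 0.11 SE, r = -0.580, adjusted p = 0.0097), *Cacnb2* (r = -0.465, adjusted p = 0.033) and *Scn1a* (r = -0.441, adjusted p = 0.042), and without quantile normalization all 12 rose instead, as did 7372 of 8540 probes. Of all probes 7.81% rose and 5.75% fell. With the BeadChips as a block 0 of the 12 passed in limma (4 at an unadjusted p under 0.05), and *Cacna2d3* had an adjusted p of 0.065. Of all 8540 probes only 5 passed with the block, against 1158 without it. Leaving out mouse 20 gave 6 calls, and leaving out mouse 102, 108, 115, 126, 129 or 155 gave 1, *Cacna2d3*. Leaving out mouse 10, 57, 59, 78, 101 or 156 gave 2.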

How the data were processed

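Total RNA of left hippocampus punches was amplified, labelled and hybridised for each mouse to its own MouseRef-8 V1.1 array of Illumina. The deposited intensity values were extracted by the authors in BeadStudio, background corrected and not normalized between arrays, and 30.8% of them were negative. The deposited detection score is high where a probe exceeds the negative control beads, and detection p-values were computed as 1 minus this score. The log2 values deposited by the authors were made with lumi, by robust spline normalization after a variance stabilizing transformation, and served as an alternative. The 24613 probes of that table were joined to the 24620 probes with signals through their ranks in every array, and each matched 1 probe. The platform named 1 gene for 20984 probes. The target name of 24 of the 42 channel probes also held the Entrez number of the gene.

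Main values were background corrected with an offset of 16 by nec, which reads the background from the detection p-values (limma 3.58.1, R 4.3.3), quantile normalized and log2 transformed, which compares mice relative to the distribution of each array. Slopes, and differences between BeadChips, were tested with lmFit and eBayes over all 8541 probes detected on at least 19 arrays, with Benjamini-Hochberg adjustment and a threshold of 0.05. Anchors were the first detected genes of a list of sodium (*Scn2a1*, *Scn1a*, *Scn8a*, *Scn3a*) and calcium (*Cacna1a*, *Cacna1b*, *Cacna1e*, *Cacna1c*) channels, and 3 of the listed subunit pairs had both genes detected. A normal mixture (mclust 6.1.1, gain in the Bayesian information criterion over 10) marked separate groups of mice. Alternatives were the authors' values, no quantile normalization (arrays centred on their median), an offset of 50, other detection filters, the number of detected probes as a covariate, BeadChip as a block, each set of chips, single mice left out, and, chosen after seeing the data, leaving out the 6 arrays with fewer than 7000 detected probes. The fits were tested on simulated data. Precision is limited by how many arrays there are and by how far a probe stands above background.

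The named genes were all channel genes, the anchors, the subunit pairs, the 5 channel pairs of largest r, the 3 most and 3 least variable channel genes, the 3 probes closest to each anchor, and channel partners that pass with an anchor. *Cacna2d1* as a fitted gene came from the subunit pairs. The channel genes, the partner and cell type lists and the tests were chosen with earlier results of these data known. Start regions came from RefSeq (GRCm38.p6), and chromosomes of the genes from RefSeq.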

Additional observations from a re-analysis of the deposited data

How the results depend on the processing

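No paired analysis was possible because all mice form 1 group. The number of detected probes as a covariate reduced the channel genes passing with *Scn1a* from 7 to 1, with *Cacna1c* from 9 to 0, with *Card10* from 3 to 1 and the passing subunit pairs from 2 to 0, and the median absolute r of channel pairs from 0.321 to 0.158. Of all 8540 probes it reduced those passing with *Scn1a* from 3494 to 321, with *Cacna1c* from 5480 to 0 and with *Card10* from 1158 to 898. Without quantile normalization 11 passed with *Scn1a* and 12 with *Card10*, all upwards, so that the direction with *Card10* was reversed, the median absolute r was 0.75 and the median SD 0.81. In that setting r turned from negative to 0.698, 0.626 and 0.584 for *Cacnb1* with the number of detected probes, *Scn1a* and *Cacna1c*, and to 0.438, 0.334 and 0.495 for *Cacna2d3*, *Cacnb2* and *Scn1a* with *Card10*, while r was positive for 95.3 to 97.2% of all probes with each of these measures. In the authors' values the median SD was 0.255. With probes detected on at least 1 array, 25 channel probes were detected. Of them 20 passed with the number of detected probes (14 rose, 6 fell), 13 with *Scn1a* (8 rose, 5 fell), 19 with *Cacna1c* (14 rose, 5 fell) and 5 with *Card10* (0 rose, 5 fell). In the main fits with the number of detected probes, *Scn1a* and *Cacna1c* only *Cacnb1* fell. Of all probes 8808, 4744, 8408 and 1452 passed in the same order, of 13448 to 13450 tested. Of these 4697, 2362, 4376 and 650 rose. On all 37 arrays 6 were detected. Within the set of 26 arrays 4 passed with *Scn1a* and 0 with *Card10* (3 at an unadjusted limma p under 0.05), beside 2112 and 56 of all 8540 probes. Within the set of 11 arrays 0 passed with *Scn1a* (4 at an unadjusted limma p under 0.05), 5 with *Cacna1c* and 0 pairs. There 37 of all probes passed with *Scn1a* and 2271 with *Cacna1c*. With BeadChip as a block 0 passed with *Card10*, beside 5 of all 8540 probes. Without the 6 arrays of fewer than 7000 detected probes 4 passed with *Scn1a*, 6 with *Card10* and 1 pair, beside 1999 and 2222 of all 8540 probes with *Scn1a* and *Card10*. The cause of these changes was not tested. Leaving out single mice gave 10 calls with the number of detected probes, 6 to 9 with *Scn1a*, 9 with *Cacna1c* and 1 to 6 with *Card10*. Within the set of 11 arrays the number of detected probes and *Card10* fell into separate groups of mice, so no value is given. The slope of *Cacna2d1* with *Scn1a* passed under all alternatives but the set of 11 arrays.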
